A study of Mus musculus with 4 samples.

Results

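Granule cells are the most numerous neurons of the olfactory bulb, and 6 genes that mark their identity or their synapses are described here across spatial transcriptomic libraries of mouse bulb: Meis2, Synpr, Tshz1, Inpp5j, Shisa8 and Lgr6. They were chosen by symbol, and each matched 1 row among the 32285 genes of the deposited matrix. The study set the bulb of 1 mutant mouse, described as degenerated in part, beside that of 1 control mouse. In the mutant, a transgenic soluble VEGF receptor 1 under tetracycline regulation and a camk2a-tTA driver blocked VEGF in the brain at E13.5. The age at sacrifice was 5 months for the mutant and the control mouse. The labels' protocol gives the transgene text for every sample, so the alleles of the control mouse are not set out in the sources used here. Fresh-frozen coronal sections of 10 µm were laid on Visium areas, 2 sections on each of 2 areas for the mutant mouse, and 2 sections on 1 area with 1 section on the other for the control mouse. A Visium area is a field of barcoded spots, each of which captures polyadenylated RNA from whichever cells lie above it, often several.

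The matrix pools 4 libraries, told apart by the number 1 to 4 at the end of each spot barcode. These numbers match no sample label, so each library is given by number without a condition, and mutant and control bulbs were not compared. With 1 mouse per condition there would be no replicate error in any case, and no p-value is given. Spots with at least 500 unique molecular identifiers (UMIs, each standing for 1 captured molecule) numbered 1662, 715, 1296 and 943 in libraries 1 to 4, with 5223890 to 13304973 UMIs per library and medians of 7186 to 9829 UMIs per spot. The chi-square per degree of freedom between gene totals was 2.89 for libraries 1 and 2, 3.23 for libraries 3 and 4, and 24.8 to 48.1 for the other pairs. No pair agreed within sampling noise.

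Bulb granule cells are small GABAergic interneurons without an axon. They inhibit mitral and tufted cells through reciprocal synapses between dendrites, and new ones arrive throughout life as neuroblasts that migrate from the subventricular zone. Meis2 encodes a homeodomain transcription factor of the TALE class that takes part in the neuronal fate of these newborn cells, and Tshz1 encodes a zinc-finger transcription factor needed for their radial migration in mouse bulb. Synpr encodes synaptoporin, a membrane protein of synaptic vesicles, and Shisa8 encodes an auxiliary protein of AMPA-type glutamate receptors. Inpp5j encodes a phosphatase that removes the 5-phosphate of phosphoinositides, and Lgr6 a receptor for the R-spondin ligands, which strengthen Wnt signalling.

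Promoter sequences of 4 of the 6 genes were in the RefSeq table (build GRCm38.p6), each from 250 bases before to 50 bases after an annotated start. Synpr, with the narrowest difference between libraries, and Lgr6, with the widest, are given 5′ to 3′ on the gene's strand, with CG pairs in capitals. Synpr has 2 annotated starts on chromosome 14, at chr14:13284530-13284829 (plus strand) and chr14:13453708-13454007 (plus strand), and the Lgr6 window lies at chr1:135105227-135105526 (minus strand).
Synpr, upstream start: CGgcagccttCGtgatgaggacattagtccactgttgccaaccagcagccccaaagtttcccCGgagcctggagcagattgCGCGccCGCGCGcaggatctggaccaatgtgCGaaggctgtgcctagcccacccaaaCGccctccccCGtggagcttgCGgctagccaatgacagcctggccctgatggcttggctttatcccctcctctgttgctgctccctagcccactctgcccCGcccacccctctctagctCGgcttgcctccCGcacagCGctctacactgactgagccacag
Synpr, downstream start: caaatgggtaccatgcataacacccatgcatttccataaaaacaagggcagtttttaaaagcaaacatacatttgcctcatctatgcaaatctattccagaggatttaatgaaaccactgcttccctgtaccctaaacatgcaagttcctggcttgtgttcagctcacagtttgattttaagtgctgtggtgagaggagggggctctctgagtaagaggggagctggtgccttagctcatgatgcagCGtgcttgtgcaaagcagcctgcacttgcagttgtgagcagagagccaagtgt
Lgr6: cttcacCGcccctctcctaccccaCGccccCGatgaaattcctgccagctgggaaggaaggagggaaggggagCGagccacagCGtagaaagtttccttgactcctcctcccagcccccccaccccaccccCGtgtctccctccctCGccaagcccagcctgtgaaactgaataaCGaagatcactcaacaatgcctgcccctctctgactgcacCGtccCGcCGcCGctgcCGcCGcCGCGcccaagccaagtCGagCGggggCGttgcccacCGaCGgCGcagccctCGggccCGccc
The upstream Synpr window holds 16 CG pairs and the downstream one 1, against 24 in the Lgr6 window and a median of 7 over the 32851 promoters of the table. Of all promoters, 33.0% hold at least 16 CG pairs and 14.1% at most 1. The Meis2 window (chr2:116064570-116064869, minus strand) holds 13 CG pairs, and that of Shisa8 (chr15:82212766-82213065, minus strand) holds 32. The letters TGACAG, the core that MEIS proteins are known to bind, were searched on both strands and occur once in the upstream Synpr window and in none of the other 4. They occur in 19.2% of all promoters. Such a match describes the letters only, and the counts do not tell which Synpr start was used.

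Meis2 (ENSMUSG00000027210) had 376, 430, 237 and 235 counts per 1000000 UMIs (CPM) in libraries 1 to 4, from 5008, 2246, 2972 and 2240 UMIs. Its highest library was 1.83 times its lowest (95% interval 1.73 to 1.94), and libraries 3 and 4 did not differ beyond counting error (ratio 1.01, interval 0.955 to 1.07). Tshz1 (ENSMUSG00000046982), the other transcription factor, had 97.0, 119, 86.6 and 68.5 CPM. Its order was library 2, 1, 3 and 4, with every neighbouring pair apart beyond counting error and 1.74-fold from end to end (interval 1.55 to 1.94). In bulk patches of this kind, fewer cells of a type and less RNA per cell cannot be told apart.

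Synpr (ENSMUSG00000056296) had 384, 412, 275 and 281 CPM, the flattest profile of the 6 genes. Library 2 was 1.5 times library 3 (interval 1.42 to 1.58), and libraries 4 and 3 did not differ beyond counting error (ratio 1.02, interval 0.971 to 1.07). Shisa8 (ENSMUSG00000096883) had 209, 218, 98.8 and 76.5 CPM. Libraries 2 and 1 did not differ beyond counting error (ratio 1.04, interval 0.973 to 1.12), and library 2 was 2.86 times library 4 (interval 2.60 to 3.14). The pair of synaptic genes thus ranged from the narrowest to one of the widest spreads.

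Inpp5j (ENSMUSG00000034570) had 416, 502, 206 and 164 CPM, and library 2 was 3.06 times library 4 (interval 2.87 to 3.26). Lgr6 (ENSMUSG00000042793) had 65.2, 86.7, 29.4 and 21.5 CPM, the widest spread of the 6, with library 2 at 4.03 times library 4 (interval 3.41 to 4.78). All neighbouring libraries of these genes differed beyond counting error. Inpp5j, Shisa8 and Lgr6 passed a 2-fold ratio of highest to lowest library, which is 3 of 6 genes, against 7.85% of the 9852 genes that reached 500 UMIs over all libraries and 3 in every one. Without library 3, 485 genes passed it, and without library 4, 503. The median ratio was 2.34 over the 6 genes and 1.24 over all genes tested. Each of the 6 was highest in library 2, as were 3005 of the 9852 genes. The libraries that held less of the other members held a larger share of Synpr: of all UMIs of the 6 genes, Synpr made up 24.8%, 23.3%, 29.5% and 33.2% in libraries 1 to 4, and Inpp5j 26.9%, 28.4%, 22.1% and 19.4%.

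**Figure D1:**
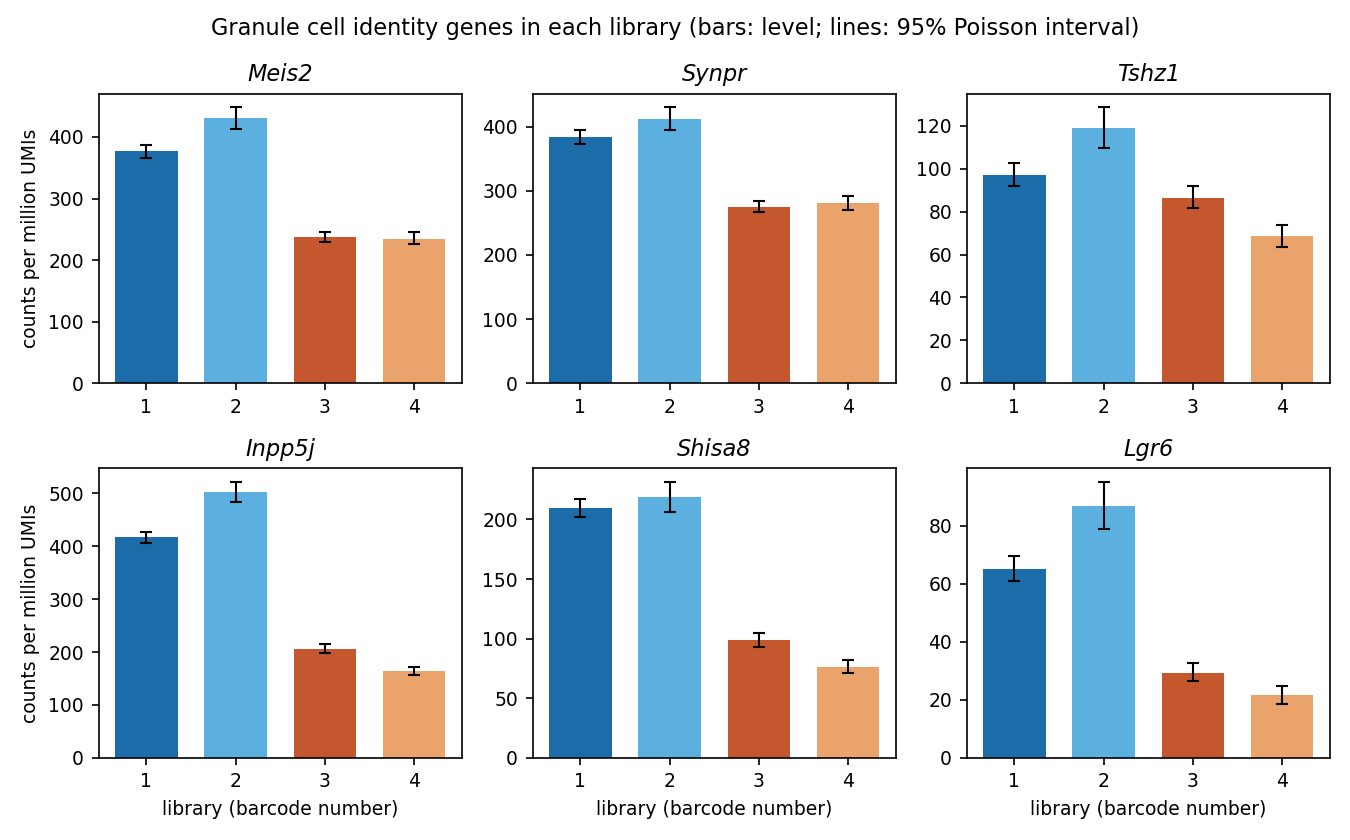
Level of each of the 6 genes in CPM (vertical axis, own scale per gene, from 0) in libraries 1 to 4 (horizontal axis); lines are 95% Poisson intervals, which cover counting error only. Library 2 is highest for every gene, and the ratio of highest to lowest library is smallest for Synpr (1.5-fold) and largest for Lgr6 (4.03-fold).

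Markers of other cells differed between the libraries as well. The 6 markers of forebrain excitatory neurons summed to 171, 212, 1406 and 1542 CPM in libraries 1 to 4. The 5 transcripts of reactive glia summed to 95.1, 106, 1625 and 1235 CPM, with Lcn2 at 0.526, 0.766, 510 and 371 CPM. The 6 markers of mitral and tufted cells, the output neurons, summed to 3444, 2990, 1831 and 1734 CPM, and the 6 of periglomerular interneurons to 1833, 1628, 668 and 692 CPM. Of these 6, Calb1 alone was higher in libraries 3 and 4, at 18.8, 19.9, 68.5 and 75.6 CPM. All 5 tested forebrain markers and all 4 tested reactive glia transcripts passed 2-fold. None of these marker lists was at 0 in any library, and their part in the differences between libraries was not tested.

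Spots were next grouped into 11 regions by clustering on genes that exclude the 6 members and every gene of the marker lists. A region is named by its leading gene, which stands for no cell type. The granule region was taken as the one richest in 6 other genes known in granule cells, namely Pcp4, Camk4, Penk, Rasgrp1, Gpsm1 and Stxbp6. This was the Eml5 region, with 379, 206, 42 and 11 spots in libraries 1 to 4, led by Eml5, Grm4, Cacna1h, Kank3 and Abl2. Its spots were shallow, with medians of 1811, 2426 and 3075.5 UMIs in libraries 1 to 3. Markers of mitral and tufted cells were lower there (median log2 ratio to the rest of the library -1.98, -1.62 and -0.56), and those of oligodendrocytes were higher (1.26, 1.26 and 0.83). In libraries 3 and 4 the spots next richest in the reference genes formed the Necab2 region, with 197 and 112 spots. In libraries 1 and 2 they formed the Klhl30 region, with 231 and 103 spots. The median log2 ratio of the members there was 0.32 and 0.33, against 0.046 and 0.0036 over all genes tested. No member passed 2-fold there, which is not read as a result, as the share of all genes was not computed for this region. In library 1 the Klhl30 region held 17.6% (Synpr) to 32.4% (Inpp5j) of the UMIs of each member and 20.5% of all UMIs. The Eml5 region of library 1 held 7.83% (Synpr) to 21.0% (Lgr6) of the UMIs of each member and 7.26% of all UMIs.

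Of the 6 genes, 5 were higher in the Eml5 region than in the rest of the same library by 1.92-fold to 6.51-fold, and Synpr by less. Meis2 had 921, 941 and 741 CPM in the Eml5 region of libraries 1 to 3, against 334, 359 and 231 CPM in the rest of those libraries. Its ratios were 2.76 (interval 2.56 to 2.97), 2.62 (2.38 to 2.88) and 3.21 (2.64 to 3.87). Tshz1 had 235, 252 and 281 CPM in the region, against 86.2, 100 and 84.1 CPM in the rest, with ratios of 2.72, 2.51 and 3.34. The region held 7.26% of all UMIs of library 1, but 17.8% of its Meis2 UMIs (95% Clopper-Pearson interval 16.7% to 18.9%) and 17.6% of its Tshz1 UMIs (15.5% to 19.8%).

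Inpp5j reached 1032, 1079 and 933 CPM in the Eml5 region, against 368, 422 and 197 CPM in the rest, with ratios of 2.80 (interval 2.61 to 3.0), 2.56 (2.34 to 2.79) and 4.73 (3.97 to 5.59). Lgr6 had 188, 228 and 179 CPM in the region, against 55.5, 67.1 and 27.5 CPM in the rest, the highest ratios of the 6 genes at 3.39 (2.86 to 4.0), 3.40 (2.77 to 4.16) and 6.51 (4.26 to 9.58). Shisa8 had 405, 377 and 319 CPM in the region, against 194, 197 and 96.0 CPM in the rest, with ratios of 2.08, 1.92 and 3.33. In each of the 3 libraries the CPM of these genes was thus higher in the region than in the rest, although library 3 contributed only 28 Lgr6 UMIs from 42 spots.

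Synpr differed from the other 5 genes. It had 414, 501 and 511 CPM in the Eml5 region, against 382, 400 and 272 CPM in the rest, and the ratios were 1.08 (interval 0.976 to 1.2), 1.25 (1.11 to 1.41) and 1.88 (1.48 to 2.34). In library 1 its level in the region could not be told from the rest within counting error. The highest Synpr level of library 1 was in the Apold1 region, at 473 CPM against 343 CPM in the rest (ratio 1.38, interval 1.3 to 1.46), where Inpp5j had 254 CPM against 492 CPM in the rest (ratio 0.517, 0.483 to 0.553). In the Apold1 region of library 2, Synpr had 491 CPM against 373 CPM in the rest, and Inpp5j 319 CPM against 594 CPM. Periglomerular markers were higher in the Apold1 region of libraries 1 and 2 than in the rest (median log2 ratio 1.47 and 1.97). The granule reference genes were lower there (-0.94 and -1.08). The sign of the Synpr ratio depended on the clustering: the log2 ratio was -0.05 in library 1 at resolution 0.4 and -0.08 in library 2 at resolution 1.2.

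Over 2-fold in each of the 3 libraries were 4 of the 6 genes (Meis2, Tshz1, Inpp5j and Lgr6), against 3.20% of the 9860 genes tested. Library by library, 5, 4 and 5 of the 6 passed, against 9.62%, 10.1% and 11.8% of genes in libraries 1 to 3. The median log2 ratio over the 6 genes was 1.46, 1.34 and 1.75 in libraries 1 to 3, against 0.15, 0.16 and 0.16 over all genes tested. In the Necab2 region of libraries 3 and 4, all 6 genes passed 2-fold in both libraries, against 6.15% of genes tested (8.70% in library 3 and 11.0% in library 4 taken singly). There Meis2 had 573 and 711 CPM, against 206 and 205 CPM in the rest, and Synpr had 606 and 654 CPM, against 245 and 258 CPM in the rest. The Synpr ratios there, 2.48 (interval 2.27 to 2.70) and 2.54 (2.27 to 2.83), were its highest of any region. Ratios of the other 5 genes ran from 2.78 for Meis2 in library 3 to 4.72 for Lgr6 in library 4.

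**Figure D2:**
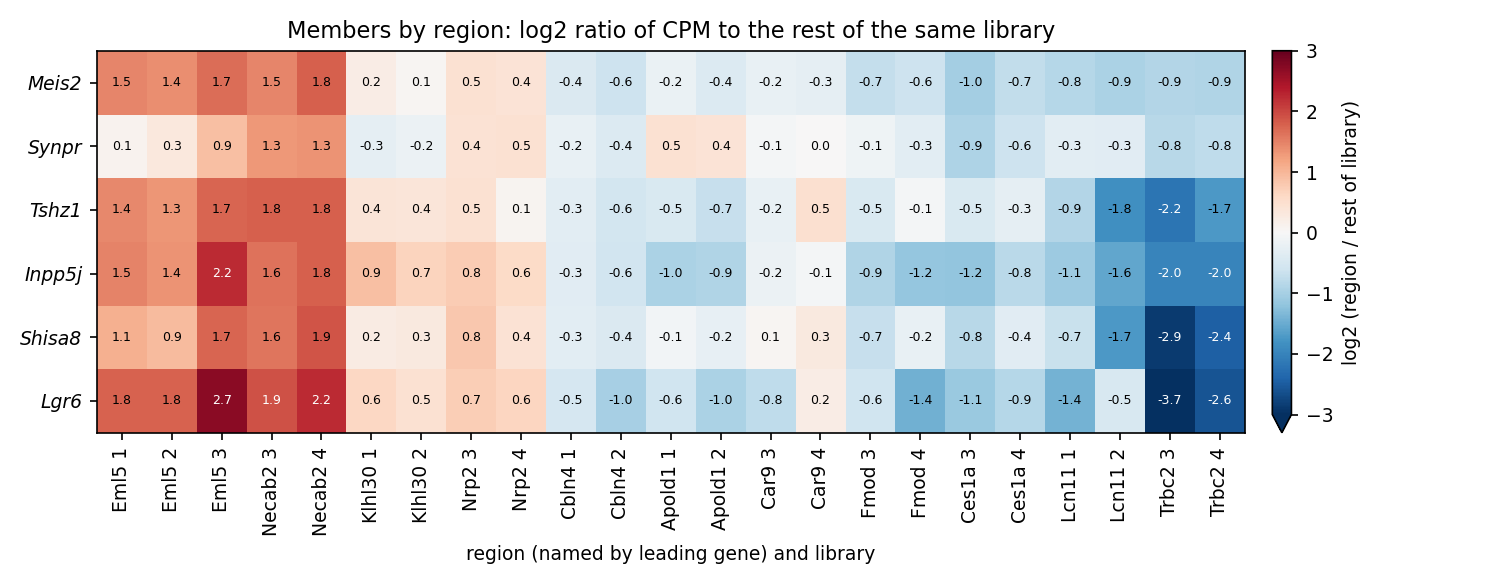
Log2 ratio of CPM in a region to CPM in the rest of the same library (colour and printed value) for each gene (rows) in every region and library with at least 30 spots (columns). The 5 genes other than Synpr stand at 0.9 or more in the Eml5 columns, all 6 at 1.3 or more in the Necab2 columns, and the Trbc2 columns are blue throughout, down to -3.7 for Lgr6 in library 3.

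The Eml5 and Necab2 regions were not alike in these genes where they could be set side by side, in library 3. Inpp5j had 541 CPM in the Necab2 region and 933 CPM in the Eml5 region (ratio 0.580, interval 0.483 to 0.70), and Lgr6 had 89.0 CPM in the Necab2 region and 179 CPM in the Eml5 region (ratio 0.498, 0.324 to 0.788). Meis2 was also lower in the Necab2 region (ratio 0.773, 0.633 to 0.951). The intervals of Synpr (1.19, 0.939 to 1.52), Tshz1 (0.887, 0.643 to 1.25) and Shisa8 (0.801, 0.591 to 1.11) include 1. Of the 6 neuroblast markers, 3 were higher in the Necab2 region beyond counting error (Dcx, Sox11 and Cd24a), and the intervals of Igfbpl1 (2.20, 0.558 to 19.0), Dlx6os1 (0.675, 0.452 to 1.04) and Tubb3 (0.847, 0.675 to 1.07) include 1. Dcx had 243 CPM in the Necab2 region and 147 CPM in the Eml5 region (ratio 1.65, 1.08 to 2.65), and Sox11 had 63.7 CPM in the Necab2 region and 19.2 CPM, from 3 UMIs, in the Eml5 region.

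At the other end stood the Lcn11 region in libraries 1 and 2 and the Trbc2 and Ces1a regions in libraries 3 and 4. In the Trbc2 region 5 of 6 forebrain excitatory markers were over 2-fold higher than in the rest of the library in each of libraries 3 and 4. There Shisa8 had 17.6 and 18.5 CPM, against 128 and 100 CPM in the rest, and Inpp5j had 65.6 and 53.2 CPM, against 258 and 209 CPM in the rest. Lgr6 had 2.98 and 4.71 CPM from 10 and 13 UMIs, against 39.0 and 28.4 CPM in the rest. Its Eml5 level in library 3 was 60.0 times its Trbc2 level, with a wide interval (28.3 to 139). Synpr and Meis2 kept higher levels in the Trbc2 region: 175 and 189 CPM for Synpr, 147 and 144 CPM for Meis2. Across the regions of a library, Synpr varied 1.5-fold (interval 1.34 to 1.67), 1.52-fold (1.17 to 2.0), 3.80-fold (3.34 to 4.31) and 3.45-fold (3.01 to 3.95) in libraries 1 to 4. Meis2 varied 4.13-fold to 5.74-fold, Inpp5j 5.03-fold to 14.2-fold and Lgr6 4.63-fold to 60.0-fold.

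Depth differs between regions, so spots were also thinned to 2000 UMIs each, a depth that 233, 89, 42 and 20 spots of libraries 1 to 4 did not reach. In libraries 1 and 2 most of those were Eml5 spots: 168 of 379, 128 of 206 and 30 of 42 remained in libraries 1 to 3, so the thinned values describe the deeper spots of that region. Inpp5j was then detected in 84.5%, 82.0% and 83.3% of Eml5 spots of libraries 1 to 3, against 8.81% and 10.2% of Trbc2 spots of libraries 3 and 4. Lgr6 was detected in 28.6% and 44.5% of Eml5 spots of libraries 1 and 2, against 0.881% and 0.510% of Trbc2 spots, at medians before thinning of 3292 to 3607 UMIs in the Eml5 region and of 13844 and 13947 UMIs in the Trbc2 region. Before thinning, Lgr6 was seen in 35.9%, 41.1%, 20.4% and 16.9% of all spots of libraries 1 to 4, and after it in 12.7%, 17.6%, 6.94% and 5.09%. Spots with none of the 6 genes at this depth made up 8.40% and 5.75% of libraries 1 and 2 and 22.1% and 25.9% of libraries 3 and 4, and spots with all 6 made up 0.490%, 0.479%, 0.239% and 0.108%.

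Levels were next compared between libraries inside a single region, with the proviso that clustering groups spots of alike expression. In the Eml5 region the highest of libraries 1 to 3 exceeded the lowest by 1.27-fold for Meis2 (interval 1.04 to 1.56), 1.23 for Synpr (0.959 to 1.57), 1.2 for Tshz1 (0.846 to 1.66), 1.16 for Inpp5j (0.966 to 1.39), 1.27 for Shisa8 (0.942 to 1.74) and 1.28 for Lgr6 (0.848 to 1.99). Meis2 alone had an interval that excludes 1. Between the whole libraries 1 to 3 the same ratio was 1.81 for Meis2, 1.5 for Synpr, 1.37 for Tshz1, 2.43 for Inpp5j, 2.21 for Shisa8 and 2.95 for Lgr6. None of the 6 genes passed 2-fold, against 2.28% of the 2016 genes tested there, and the median ratio was 1.25 over the 6 genes and 1.22 over all genes tested. The upper bound of 1.99 for Lgr6 shows how little 42 spots can tell. When library 4 was added with its 11 spots, when the clustering resolution was 0.4, or when library 3 was left out, Lgr6 did pass 2-fold (log2 ratios of 1.35, 1.28 and 1.05 in that order of settings).

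Inside the Necab2 region libraries 3 and 4 differed by 1.06-fold (Shisa8) to 1.24-fold (Meis2, interval 1.09 to 1.41), none of the 6 over 2-fold, against 0.110% of genes tested. Lgr6, with 142 UMIs there, was under the minimum of 200 for a gene to be tested. Meis2 was higher in library 4 inside the region (1.24), while between the whole libraries its ratio of library 3 to 4 was 1.01. The Synpr ratios of library 4 to 3 were 1.08 inside (interval 0.947 to 1.23) and 1.02 between the whole libraries (0.971 to 1.07). Both Synpr intervals include 1. For the other 4 genes the ratio was smaller inside (1.06 to 1.21) than between the whole libraries (1.26 to 1.37), with overlapping intervals. The Eml5 region made up 22.8%, 28.8%, 3.24% and 1.17% of the spots of libraries 1 to 4, and the Necab2 region 0.602%, 1.68%, 15.2% and 11.9%. These shares turned on the clustering. At resolution 0.4 the region richest in the reference genes held 549, 294, 286 and 163 spots of libraries 1 to 4, and with library 1 left out it held 229, 206 and 96 spots of libraries 2 to 4. Without library 3 it held 74 spots of library 4. The part of these spot numbers in the differences between libraries was not tested.

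**Figure D3:**
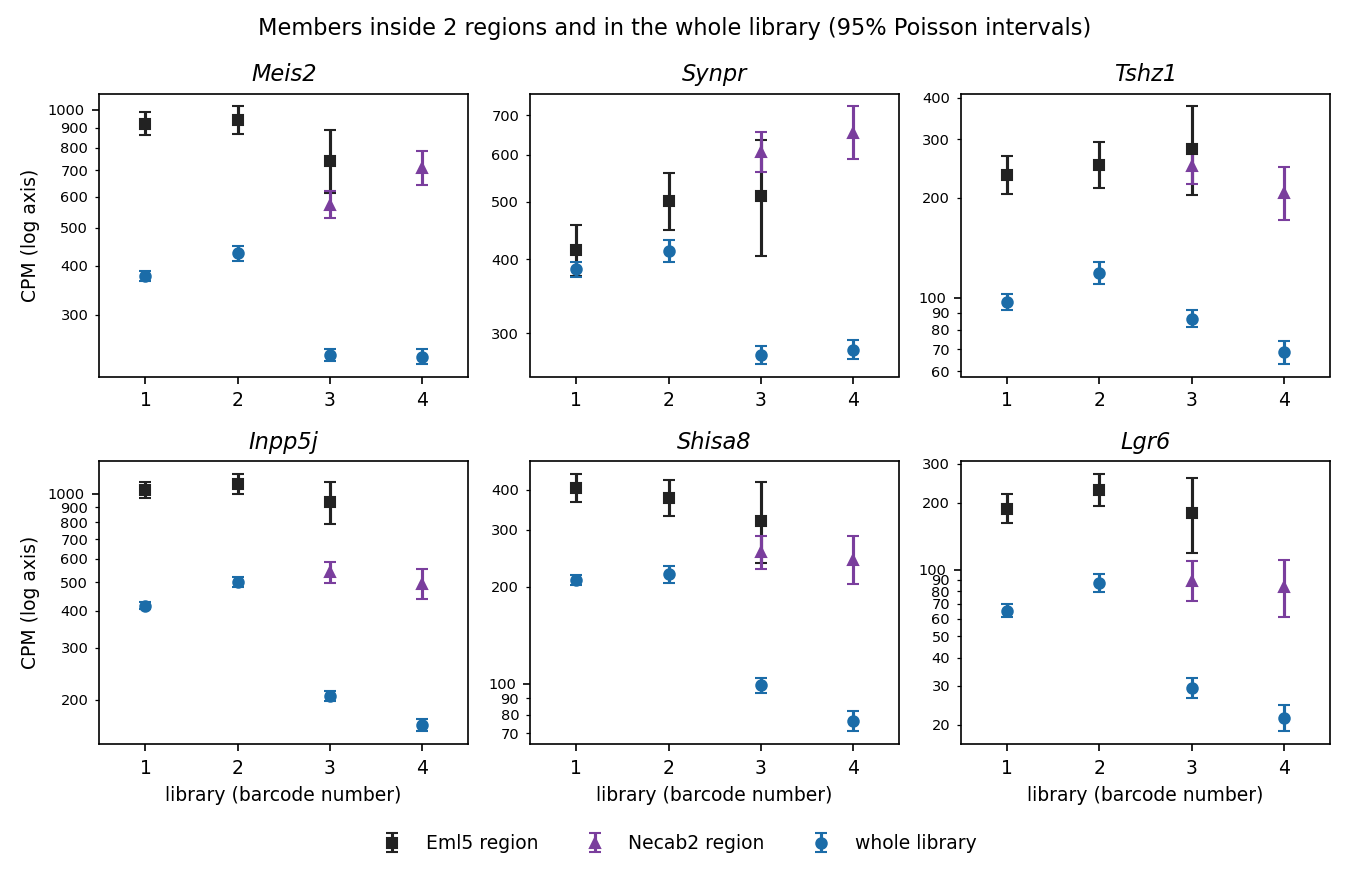
CPM (log axis) of each gene in the Eml5 region (squares, libraries 1 to 3), in the Necab2 region (triangles, libraries 3 and 4) and in the whole library (circles), with 95% Poisson intervals. Squares lie within 1.28-fold of each other for every gene, while the circles of the same libraries 1 to 3 lie 1.37-fold (Tshz1) to 2.95-fold (Lgr6) apart. The triangles of Meis2 lie 1.24-fold apart, with library 4 higher, and its circles of libraries 3 and 4 lie 1.01-fold apart, with library 3 higher.

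The next comparison needed no clustering. In each library, spots were ranked by the share of their UMIs from the 6 reference genes, and the top 20% were set against the other spots. Inpp5j had 932, 1061, 483 and 338 CPM in the top spots of libraries 1 to 4, against 355, 434, 156 and 125 CPM in the other spots, with ratios of 2.62, 2.44, 3.10 and 2.71. Lgr6 had 165, 206, 83.1 and 39.5 CPM in the top spots, against 53.2, 72.3, 19.5 and 17.5 CPM in the others, with ratios of 3.10, 2.85, 4.27 and 2.26. These were the only 2 of the 6 genes over 2-fold in all 4 libraries, against 0.335% of genes tested. Library by library, 4, 4, 5 and 2 of the 6 passed, against 4.29%, 6.60%, 2.18% and 0.609% of genes. Meis2 and Tshz1 passed it in libraries 1 to 3, and in library 4 had ratios of 1.80 (interval 1.64 to 1.97) and 1.38 (1.14 to 1.65).

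Shisa8 had ratios of 1.89, 1.78, 2.75 and 1.63 along the same axis. The Synpr ratio had an interval that includes 1 in library 1 (1.07, 0.978 to 1.17) and was 1.22 (1.07 to 1.39), 1.74 (1.60 to 1.88) and 1.32 (1.21 to 1.45) in libraries 2 to 4. High values were not particular to the granule reference genes, as 2 other axes chosen after seeing the data show. When spots of library 4 were ranked by the periglomerular markers instead, the ratios were 2.41 for Shisa8, 2.80 for Lgr6 and 1.53 for Tshz1, against 1.63, 2.26 and 1.38 on the granule axis. In libraries 1 and 2 the periglomerular axis gave Inpp5j ratios of 0.490 and 0.529 and Synpr ratios of 1.43 in both. Ranked by the mitral and tufted markers, Shisa8 had ratios of 0.852, 0.834, 1.68 and 1.67 in libraries 1 to 4. On the granule reference axis, with the top 50% of spots, the log2 ratio of Synpr in library 1 was -0.15. Without library 4, or without Pcp4 among the reference genes, 4 of the 6 genes passed 2-fold. The share of all genes was not computed under these settings. With a library left out the rule asks for fewer libraries, so the count cannot fall. On an axis of the GABA genes Gad1, Gad2 and Slc32a1, added after seeing the data, the ratios of the 6 genes ran from 1.23 to 2.24 in library 1, from 1.35 to 2.10 in library 2, from 2.14 to 4.75 in library 3 and from 1.91 to 4.97 in library 4, with Synpr or Tshz1 lowest and Lgr6 highest. Depth did not move steadily along the granule reference axis. In 5 equal bins of spots, the bin richest in reference UMIs had medians of 2672, 2946, 5712 and 8865.5 UMIs in libraries 1 to 4. The poorest bin had 6735, 6835, 9356 and 8533 UMIs. The richest bin was the shallowest of the 5 in libraries 1 to 3, and the poorest bin was in library 4. In library 1 the bins between them had 10039, 10326 and 9571.5 UMIs. Among the 554 shallowest spots of library 1, Meis2 had 604 CPM, against 333 CPM among the 554 deepest. Synpr had 348 CPM among the shallowest and 366 CPM among the deepest, and 61.0% and 0.542% of those spots belonged to the Eml5 region. The part of depth in the axis was not tested beyond the thinned values.

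**Figure D4:**
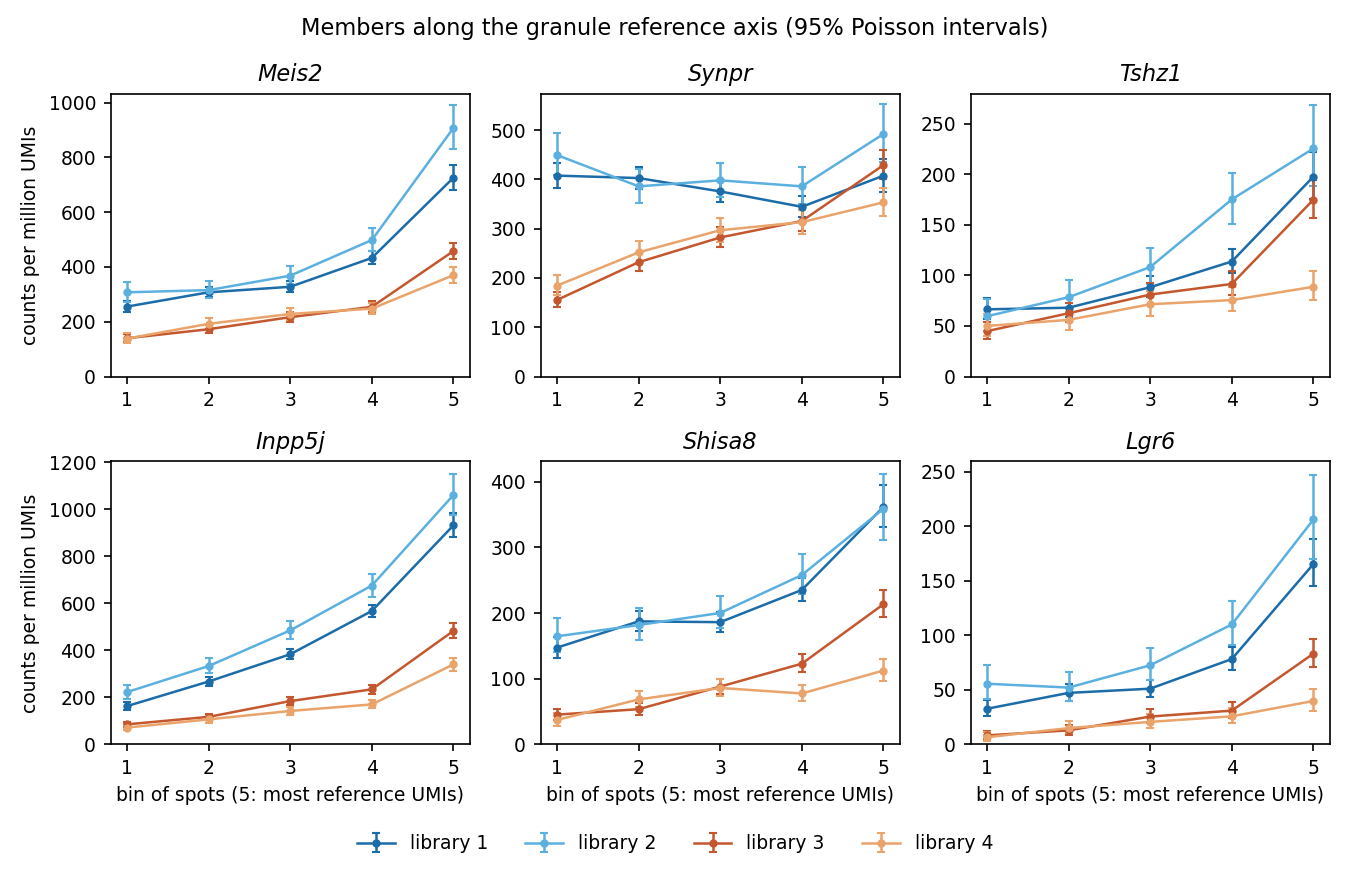
CPM of each gene (vertical axis, from 0) in 5 equal bins of spots ordered by their share of granule reference UMIs (horizontal axis, 5 holds the most), 1 line per library, with 95% Poisson intervals. Every line is highest in bin 5 for Meis2, Tshz1, Inpp5j, Shisa8 and Lgr6, while Synpr in library 1 has 408 CPM in bins 1 and 5 alike and 344 CPM in bin 4, and in library 2 has 492 CPM in bin 5 and 386 CPM in bin 2.

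From spot to spot the 6 genes were only weakly related. Over the 15 pairs of genes, in spots thinned to 2000 UMIs, the median Spearman rho was 0.0594, 0.0960, 0.115 and 0.114 in libraries 1 to 4 (1429, 626, 1254 and 923 spots, which share tissue and library within each). Meis2 with Inpp5j was the most related pair in library 1 (0.178), Inpp5j with Lgr6 in library 2 (0.216), and Inpp5j with Shisa8 in libraries 3 and 4 (0.20 and 0.234). In such sparse counts these values are descriptions and no finding. Over the 23 sums of a region in a library, by contrast, rho between pairs of the 6 genes ran from 0.809 (Synpr with Tshz1) to 0.978 (Meis2 with Shisa8), where the sums share the 11 regions and the 4 libraries. Inside the Eml5 region the variance of the thinned count over its mean ran from 0.946 (Meis2) to 1.10 (Synpr) in library 1, from 0.744 (Lgr6) to 1.34 (Inpp5j) in library 2 and from 0.724 (Lgr6) to 1.17 (Synpr) in library 3, where random sampling of molecules alone gives 1.

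Over the same 23 sums, the 3 genes most alike to each member among 7112 genes were as follows. Meis2 was most like Grm4, a metabotropic glutamate receptor (rho 0.982), Shisa8 (0.978) and Pcbp3 (0.975), and Synpr was most like Hap1 (0.976), Trim62 (0.958) and Tmem130 (0.947). For Tshz1 these were Ncbp3 (0.974), Ppp1cc (0.957) and Ppp2r5a (0.952), the last 2 of which encode phosphatase subunits. Inpp5j was nearest to Fam184a (0.983), the long noncoding RNA Dlx6os1 (0.978) and Gpsm1 (0.971), a G-protein modulator that is itself among the reference genes. Shisa8 was nearest to Gprc5b (0.988), Dlx6os1 (0.987) and Gad1 (0.985), which encodes a GABA-synthesising enzyme. Lgr6 was nearest to the transcription factor gene Sall1 (0.962), Hdac5 (0.961) and Gad1 (0.958). Dlx6os1 and Gad1 each appear for 2 members, and no gene appears among the 3 nearest of both Synpr and another member.

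The genes that work with the members were followed in the same libraries. Counts of genes over 2-fold between libraries stand here beside the 7.85% of all genes tested and their median ratio of 1.24, and in lists this short a count of 0 or 1 is not read as a result. The 3 GABA genes all passed it, with Gad1 at 1345, 1398, 712 and 608 CPM and Slc32a1, the vesicular GABA transporter, at 337, 333, 177 and 161 CPM. Of the 11 bulb interneuron transcription factors tested, 6 passed it, such as Dlx1 at 164, 185, 99.6 and 88.1 CPM, in the order of Gad1, and Nr2f2 at 31.1, 27.6, 60.9 and 55.5 CPM, higher in libraries 3 and 4. Of the TALE relatives and partners of Meis2, 0 of 8 passed 2-fold, with a median ratio of 1.38. The widest was Meis1 at 33.7, 34.8, 20.7 and 18.8 CPM (ratio 1.86, interval 1.5 to 2.3). The second widest was Pbx3, at 107, 126, 85.9 and 77.6 CPM.

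Of the relatives of Tshz1, Tshz2 was tested and had 32.8, 28.5, 18.6 and 19.1 CPM. Tshz3 and Prokr2, the receptor gene that Tshz1 is known to regulate in mouse bulb, were under 500 UMIs and were higher in libraries 3 and 4, with Prokr2 at 2.71, 2.11, 10.2 and 7.97 CPM. Members of the synaptophysin and synaptogyrin family stayed nearly level, with a median ratio of 1.15, and Syp had 530, 490, 484 and 462 CPM. Of the 5 tested, 1 passed 2-fold, Syngr2, which was higher in libraries 3 and 4 (10.97, 12.4, 27.8 and 23.5 CPM). Of 9 genes tested from the family of phosphoinositide 5-phosphatases, 1 passed 2-fold, Synj2, at 9.09, 7.47, 16.9 and 22.3 CPM, opposite to Inpp5j.

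The AMPA receptor genes around Shisa8 were divided. The subunits Gria1 (332, 327, 190 and 199 CPM) and Gria4 (139, 137, 74.8 and 67.0 CPM) were higher in libraries 1 and 2, as Shisa8 was, while Gria3 (64.7, 78.7, 122 and 132 CPM) was higher in libraries 3 and 4 and Gria2 varied 1.25-fold. Of 11 auxiliary genes tested, 6 passed 2-fold. Among them Shisa6, Shisa9, Cacng5 and Cacng7 were higher in libraries 1 and 2, with Shisa9 at 153, 144, 57.8 and 57.6 CPM. Cacng3 and Gsg1l were higher in libraries 3 and 4, with Cacng3 at 26.7, 33.5, 88.6 and 97.5 CPM. Of the Lgr and R-spondin genes, 1 of 5 passed 2-fold: Lgr5, another R-spondin receptor gene, at 91.7, 107, 36.2 and 29.7 CPM. Lgr4 had 45.9, 51.7, 40.5 and 32.8 CPM. The ligand gene Rspo3 had 40.9, 36.9, 27.4 and 21.2 CPM and Axin2, a target of Wnt signalling, 13.7, 15.7, 18.0 and 19.6 CPM.

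**Figure D5:**
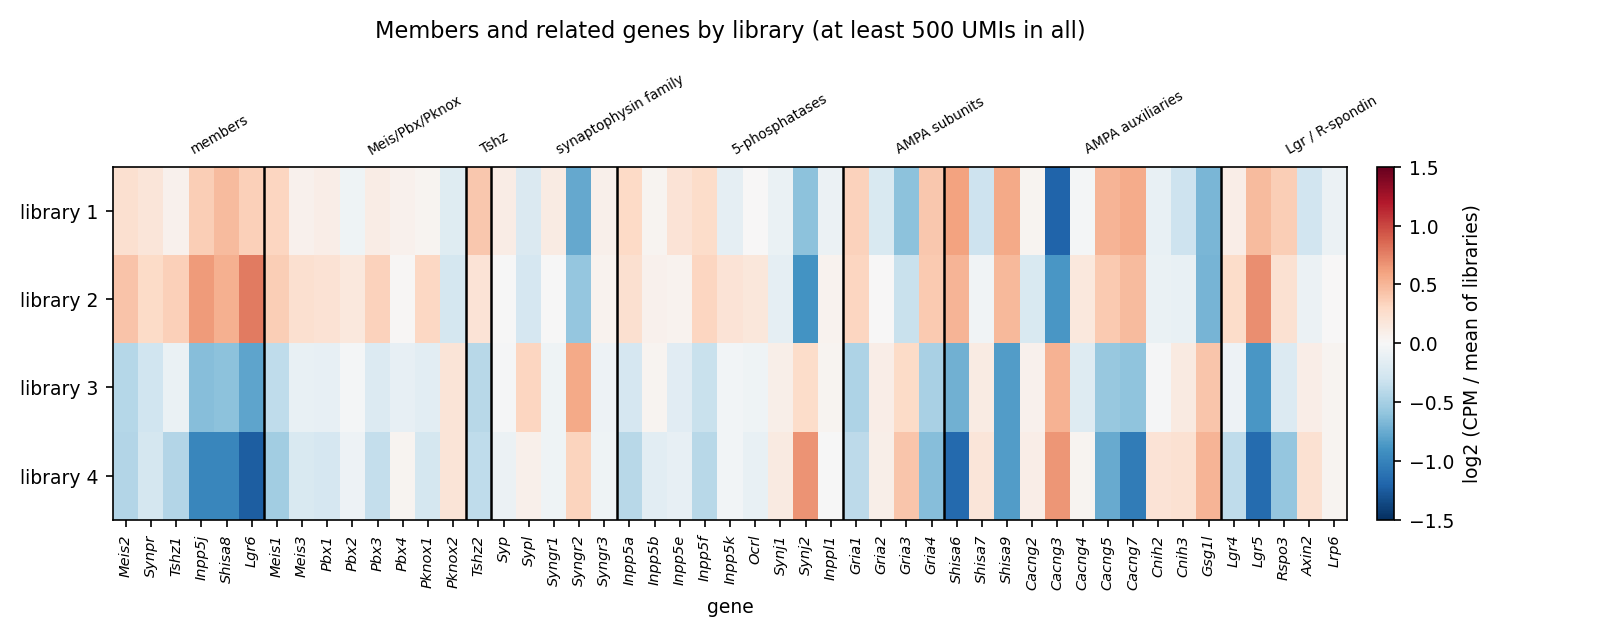
Log2 of CPM over the mean of the 4 libraries (colour) for the 6 members and related genes with at least 500 UMIs in all (columns, grouped by family) in libraries 1 to 4 (rows). The members and Lgr5, Shisa6, Shisa9, Cacng5 and Cacng7 are red in libraries 1 and 2, except that Tshz1 is nearly white in library 1. Cacng3, Gria3, Gsg1l, Syngr2 and Synj2 are blue in libraries 1 and 2, and most Meis partners and 5-phosphatases are pale.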

How the data were processed

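Spatial transcriptomes of bulb sections from 1 mutant and 1 control mouse were used. The authors deposited a single pooled matrix of whole-number UMI counts per gene and spot, written, per the file headers, by Space Ranger 1.3.1. The submitters' processing notes name the build GRCm39, which the matrix itself does not record. The annotation and any scaling of depth between areas are not stated there. Promoters come from RefSeq tables of GRCm38.p6, matched by symbol, and their coordinates hold for that build only. The counts do not use them. Of 32285 gene identifiers, 32158 were in the reference name table.

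Spots were assigned to libraries by barcode number. Of 2796 distinct barcodes, 1460 occur in at least 2 libraries, because barcodes stand for positions on the array. Spots under 500 UMIs were left out (97 of 4713, with 0.0680% of UMIs). UMIs were summed per library or region and given per 1000000 (CPM), with 95% intervals that were exact Poisson (levels), exact conditional binomial (ratios) or Clopper-Pearson (shares). Intervals cover counting error only. A count of 3 UMIs in a library equals 0.225 to 0.574 CPM. A called gene is one past 2-fold, and log2 ratios use a prior count of 0.5. Regions came from counts scaled to 10000 per spot and log-transformed, 2000 variable genes, 30 principal components, 15 neighbours and Leiden clustering at resolution 0.8 (scanpy 1.11.5). Spots hold several cells, and no doublet caller, image or position was used. Genes named are the 6 members, genes of the 23 lists, the 3 most alike to each member and the 5 leading genes of the granule region. Values of a few list genes are not reported here. The members and lists were chosen with earlier results of these data known. Scripts were tested on simulated data.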

Additional observations from a re-analysis of the deposited data

How the results depend on the processing

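The count of 3 members over 2-fold between libraries was 3 or 4 under every setting run, being 4 for the mean of spot shares, where Meis2 passed at a log2 ratio of 1.02. The order of the libraries held for all 6 members except under the mean of spot shares (5) and in thinned spots (4). The 773 genes over 2-fold in all became 210 in spots thinned to 2000 UMIs, where fewer genes reach the minimum, 1329 with at least 200 UMIs and no minimum per library, 471 with at least 1000 UMIs, and 485 to 649 with a library left out. Inside the Eml5 region the count of members over 2-fold, 0 as reported, was 1 at resolution 0.4, 1 with libraries of at least 10 spots, and 0 to 1 with a library left out. On the reference axis the count of 2 was 4 without Pcp4, 1 on the GABA axis, and 2 to 4 with a library left out, where it cannot fall. The share of all genes past 2-fold was not computed for these settings of the region and the axis, so the counts have no background beside them. The median rho of pairs was 0.038 in library 4 at 1000 UMIs, and -0.022 and 0.013 in the Eml5 region alone in libraries 2 and 3. The causes of these shifts were not tested, apart from the number of genes or spots left. Of 162 alternative ratios of single members in the Eml5 region, 160 kept their sign and 19 left the counting interval of the reported value. On the axis 191 of 192 kept their sign and 72 left that interval, and the exceptions in sign were Synpr. Spots are ranked within each library, so the axis alternatives with a library left out repeat the reported values by construction. The region chosen by Pcp4 alone, or with a minimum of 10 spots, had the same 638 spots, so its ratios to the rest are repeats too. Of 78 ratios of highest to lowest library, which are above 1 by construction, 15 left the counting interval. Changing the minimum UMIs of a gene cannot alter these ratios. The alternatives with libraries of at least 10 spots, region spots thinned to 1000 UMIs and the GABA axis were chosen after seeing the data. No paired analysis was possible because the barcode numbers match no sample label. Depth limits Lgr6 most, with 205 to 867 UMIs per library, and the Eml5 region of library 3, with 42 spots.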

Other observations

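Several gene groups outside the families of the members had their own profile in the regions where the members stood high. Oligodendrocyte genes were higher in the Necab2 region than in the rest of the library (median log2 ratio 1.53 in library 3 and 0.84 in library 4). Neuroblast markers were higher there too (1.22 and 1.25). Transcripts of sensory axons were lower in the Eml5 region than in the rest in libraries 1 to 3 (median log2 ratio -3.41, -3.64 and -2.20, all 4 over 2-fold lower in each). Reactive glia transcripts were lower in both the Eml5 region (-2.27 in library 3) and the Necab2 region (-2.30 and -2.82 in libraries 3 and 4) than in the rest of the same libraries. These values are descriptions of single libraries.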
